A study of Mus musculus with 20 samples.

Results

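The 10 genes described here comprise 9 that encode a selenoprotein (Gpx1, Gpx4, Selenop, Selenow, Selenof, Dio1, Txnrd2, Msrb1 and Sephs2) and Secisbp2, which encodes a protein of the machinery that makes selenoproteins. They were chosen by name, from a list of gene symbols, and all 10 had enough counts for a test, out of 14759 tested genes and 46078 genes in the table of counts. mRNA with a poly(A) tail was sequenced from the livers of 20 male mice, at least 9 weeks old and of a mixed 129/C57BL/6 background, that were first kept on a calorie-restricted control diet for 3 days. Tissue was taken 2 days after they were moved to the diet of their group. All diets were variants of a defined amino acid diet. Cse (listed as Cth) encodes cystathionine γ-lyase, the last enzyme on the route from methionine to cysteine, and mice without it need cysteine in their food. Mice with the gene are labelled WT, but heterozygous in the study's list of mice, and are written Cse+/- here. They received the control diet (n = 2), a diet without tryptophan (no-Trp, n = 3) or a diet without cysteine (no-Cys, n = 4). Cse-/- mice, which lack the gene in all tissues, received the no-Trp diet (n = 3), the no-Trp diet with L-buthionine sulfoximine (BSO), an inhibitor of the first enzyme of glutathione synthesis (n = 4), or the no-Cys diet (n = 4). The control, no-Cys and no-Trp diets were calorie-restricted as well, by the study's account, which does not say so separately for the mice sequenced with BSO. No Cse-/- livers from the control diet were analysed here, so that the effect of the no-Cys diet in Cse-/- mice is set against the no-Trp diet. Mice are named by their numbers in the study's list (av01 to av22).

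Selenoproteins carry selenocysteine, a relative of cysteine with selenium in place of sulfur, usually at the site of catalysis. Selenocysteine is encoded by TGA (UGA in the mRNA), which elsewhere ends translation. A stem-loop in the 3′ part of the mRNA, the SECIS element, is bound by SECISBP2, which with the elongation factor EEFSEC brings in the tRNA charged with selenocysteine. A TGA that is read as a stop can expose an mRNA to nonsense-mediated decay, and the mRNAs of selenoproteins are known to differ in how well they are kept when selenium is scarce. The liver takes up selenium, makes most of the selenoprotein P of plasma, which supplies other tissues, and activates thyroid hormone through deiodinase 1.

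The codon that makes these transcripts special is shown with up to 12 bases of coding sequence on either side, with the TGA in capitals, as read from the GENCODE M21 transcripts of GRCm38. In each of the 9 selenoprotein genes the in-frame TGA codons found in the coding sequence are those that the annotation marks as selenocysteine. The coordinates are those of the TGA, and the codons are counted from the start codon.
Gpx1, codon 47 of 201, exon 1 of 2, chr9:108339451-108339453, plus strand: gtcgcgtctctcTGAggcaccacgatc
Gpx4, codon 73 of 197, exon 3 of 7, chr10:80054737-80054739, plus strand: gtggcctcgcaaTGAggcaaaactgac
Selenop, codon 59 of 380, exon 2 of 5, chr15:3274848-3274850, plus strand: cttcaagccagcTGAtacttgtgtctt
Selenow, codon 13 of 88, exon 2 of 6, chr7:15920464-15920466, minus strand: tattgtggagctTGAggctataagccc
Selenof, codon 93 of 162, exon 3 of 5, chr3:144590645-144590647, plus strand: gaagtctgcggaTGAaaattggggagg
Dio1, codon 126 of 257, exon 2 of 4, chr4:107297700-107297702, minus strand: ggcagttgcaccTGAccttcatttctt
Txnrd2, codon 526 of 527, exon 17 of 17, chr16:18477772-18477774, plus strand: gtgactggttgcTGAggc
Msrb1, codon 95 of 116, exon 3 of 5, chr17:24740158-24740160, plus strand: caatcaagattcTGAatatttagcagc
Sephs2, codon 63 of 452, exon 1 of 1, chr7:127273731-127273733, minus strand: ggcatgaagggcTGAggctgcaaggtc
Selenop holds 10 such codons, of which the first is shown, and each of the other 8 genes holds 1. In Txnrd2 the TGA is the codon before the last, so that the window ends at the end of the coding sequence. Secisbp2, with 858 codons, has no in-frame TGA. The TGA shown lies upstream of the last exon junction of the mRNA in 7 genes, by 105 bases in Gpx1, 342 in Gpx4, 357 in Selenop, 243 in Selenow, 78 in Selenof, 303 in Dio1 and 66 in Msrb1. In Txnrd2 it lies in the last exon, and Sephs2 has a single exon.

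Counts on genes ranged from 11785740 to 57986121 per library, with a median of 15252745. Values are given as CPM, the counts relative to library size with TMM factors. A gene is called where its edgeR adjusted p is under 0.05. Cth was at 88.4 to 332 CPM in the Cse+/- livers and at 6.37 to 14.4 CPM in the Cse-/- livers, without overlap. For 17 of the 20 libraries the most similar library was one of the same group, the exceptions being av08, av16 and av21. The 5 hepatocyte markers (Alb, Ttr, Apoa1, Cps1 and Ass1) were detected in all 20 livers, and none of the marker genes that were tested was at 0 in any library.

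Together the 10 genes took between 1.02% and 1.24% of the counts of a liver. Per kilobase of exonic length, Selenop was the most abundant in every liver, with a median of 2730 CPM per kilobase over the 20 livers, followed by Gpx1 at 1278. Sephs2 (372) and Msrb1 (366 CPM per kilobase) overlapped in range, as did Gpx4 (125), Selenow (116), Dio1 (46.5) and Selenof (28.3), each with the next in that order. Txnrd2, at 6.73 CPM per kilobase, and Secisbp2, at 4.75, had the lowest medians. The lowest liver of Dio1, at 5.02 CPM per kilobase, was below the whole range of Txnrd2 (5.79 to 10.3). Dio1 varied most between livers, by 25.3 times from the lowest (9.90 CPM) to the highest (251 CPM), and Selenop least, by 1.26 times (6852 to 8650.4 CPM).

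**Figure D1:**
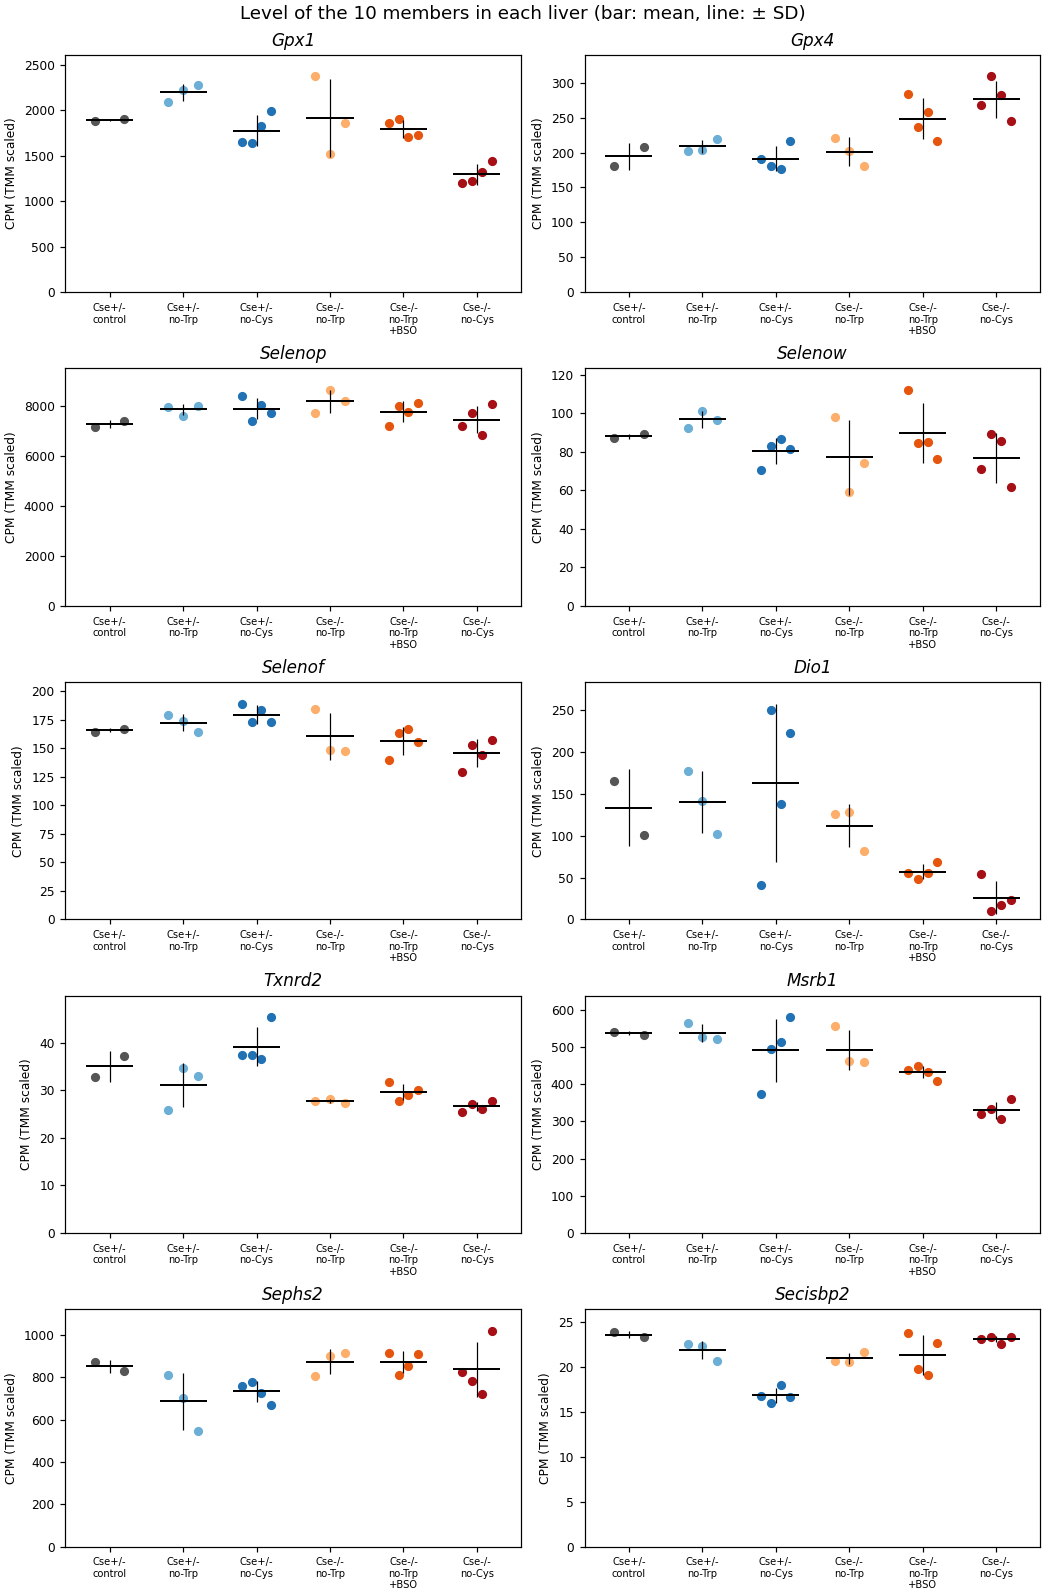
Level of each of the 10 genes in each liver, as CPM after TMM scaling on linear axes from 0, by group; points are mice, horizontal bars are group means and vertical lines span 1 SD on either side. Gpx1 and Msrb1 are lowest and Gpx4 is highest in the Cse-/- no-Cys livers, Secisbp2 is lowest in the Cse+/- no-Cys livers, and Selenop stays between 6852 and 8650.4 CPM.

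On the no-Cys diet, which shows the effect of losing the enzyme when no cysteine is eaten, Cse-/- livers had lower Dio1, Msrb1, Txnrd2, Gpx1 and Selenof than Cse+/- livers and higher Gpx4 and Secisbp2. Thus 5 of the 10 genes were lower, 2 were higher and 3 (Selenop, Selenow and Sephs2) did not pass the test. Of all genes tested, 23.8% were called in this comparison, with 12.2% lower and 11.6% higher. The ranges of the groups did not overlap for 6 of the 10 genes, against 23.2% of all genes tested. The median log2 fold change of the 10 genes was −0.19, beside −0.0093 over all genes. CPM gives a share of the mRNA of whole liver, in which fewer cells of a type and less RNA per cell cannot be told apart.

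The glutathione peroxidases, which use glutathione to reduce peroxides, moved in opposite directions. Gpx1 (ENSMUSG00000063856, chr9:108338903-108340343, plus strand) encodes the abundant cytosolic enzyme that reduces hydrogen peroxide. It was at 1646, 1639.7, 1825 and 1994 CPM in the Cse+/- no-Cys livers and at 1200.4, 1217, 1318 and 1442 CPM in the Cse-/- no-Cys livers. All 4 Cse-/- livers lay below all 4 Cse+/- livers (log2 fold change −0.46, SE 0.113, edgeR adjusted p = 0.00644). Gpx4 (ENSMUSG00000075706, chr10:80047166-80056439, plus strand) encodes the enzyme that reduces lipid peroxides in membranes. It was at 191, 181, 177 and 216 CPM in Cse+/- and at 268, 309, 282 and 245 CPM in Cse-/- livers, so that every Cse-/- liver was above every Cse+/- liver (log2 fold change 0.53, SE 0.102, edgeR adjusted p = 9.80e-04). Of the sequence words of 61 bases in Gpx4 transcripts, 32.5% also occur in the pseudogene Gpx4-ps2, so that reads from there may be missing from the counts of Gpx4 or assigned to either gene. Gpx1 shared none with another gene.

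The largest difference was that of Dio1 (ENSMUSG00000034785, chr4:107291465-107307169, minus strand), the deiodinase that converts thyroxine into the active hormone and clears reverse triiodothyronine. Dio1 was at 40.8, 251, 138 and 223 CPM in Cse+/- no-Cys livers and at 54.4, 9.90, 17.1 and 23.1 CPM in Cse-/- no-Cys livers. The ranges overlapped, since mouse av01 was the lowest of the Cse+/- livers and mouse av05 the highest of the Cse-/- livers. The log2 fold change was −2.64 (95% interval −3.61 to −1.67, edgeR adjusted p = 4.97e-04), and it was −2.96 without av01 and −3.28 without av05.

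Msrb1 (ENSMUSG00000075705, chr17:24736642-24742778, plus strand) encodes methionine sulfoxide reductase B1, which repairs oxidized methionine. It was at 374, 495, 513 and 579.8 CPM in Cse+/- and at 319, 332, 307 and 361 CPM in Cse-/- livers, without overlap, although the lowest Cse+/- liver (av01) was close to the highest Cse-/- liver (log2 fold change −0.57, SE 0.108, edgeR adjusted p = 8.12e-04). Txnrd2 (ENSMUSG00000075704, chr16:18426384-18479073, plus strand), the thioredoxin reductase of mitochondria, was at 37.5, 37.4, 36.7 and 45.4 CPM in Cse+/- and at 25.5, 27.2, 26.2 and 27.7 CPM in Cse-/- livers. The Cse-/- livers lay within a narrow band below all Cse+/- livers (log2 fold change −0.56, SE 0.0933, edgeR adjusted p = 3.08e-04). Selenof (ENSMUSG00000037072, chr3:144570304-144597680, plus strand), a protein of the endoplasmic reticulum that acts with a glycoprotein folding sensor, was at 189, 173, 184 and 173 CPM in Cse+/- and 129, 153, 144 and 157 CPM in Cse-/- livers. Its ranges did not overlap (log2 fold change −0.30, SE 0.0888, edgeR adjusted p = 0.0184), but its adjusted p was 0.082 without av05 (log2 fold change −0.24), 0.0555 without av07 (−0.28) and 0.0679 with no filter on low counts.

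Secisbp2 (ENSMUSG00000035139, chr13:51651697-51684044, plus strand), which encodes the SECIS-binding protein, was at 16.8, 16.0, 18.0 and 16.6 CPM in Cse+/- and at 23.1, 23.3, 22.6 and 23.3 CPM in Cse-/- no-Cys livers. All Cse-/- livers were higher (log2 fold change 0.45, SE 0.0807, edgeR adjusted p = 5.28e-04). The level of the Cse-/- no-Cys livers was close to that of the Cse+/- control livers (23.9 and 23.3 CPM), and the Cse+/- no-Cys livers were the lowest of the 6 groups, with no overlap with the next group.

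Selenop (ENSMUSG00000064373, chr15:3268547-3280508, plus strand) encodes selenoprotein P, the carrier of selenium in plasma. It was at 8416, 7432, 8076 and 7731 CPM in Cse+/- and 7227, 7729, 6852 and 8082 CPM in Cse-/- no-Cys livers, with overlapping ranges and a 95% interval of the log2 fold change of −0.26 to 0.092 (edgeR adjusted p = 0.505). Selenow (ENSMUSG00000041571, chr7:15917208-15922402, minus strand), a small selenoprotein with a thioredoxin-like fold, was at 70.5, 83.0, 86.5 and 81.7 and 71.4, 89.3, 85.8 and 61.5 CPM (interval −0.36 to 0.24). Sephs2 (ENSMUSG00000049091, chr7:127271879-127274055, minus strand), a selenophosphate synthetase that makes the selenium donor for selenocysteine and is itself a selenoprotein, was at 761, 777, 727 and 669 and 824, 784, 721 and 1020.3 CPM (interval −0.051 to 0.43). These intervals hold 0 and, for Sephs2, also a rise of up to 0.43 on the log2 scale. Selenop shares 13.2% of its 61-base words with Ccdc152 and Sephs2 34.6% with Gm44729, genes on the opposite strand that overlap their exons. The library kit does not mark strand, so that reads from these stretches cannot be assigned to either gene.

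Of the genes with an upstream TGA, Gpx1, Selenof, Dio1 and Msrb1 fell in this comparison, Gpx4 rose, and Selenop and Selenow did not pass the test. Txnrd2, with its TGA in the last exon, fell, and Sephs2, with a single exon, did not pass the test.

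**Figure D2:**
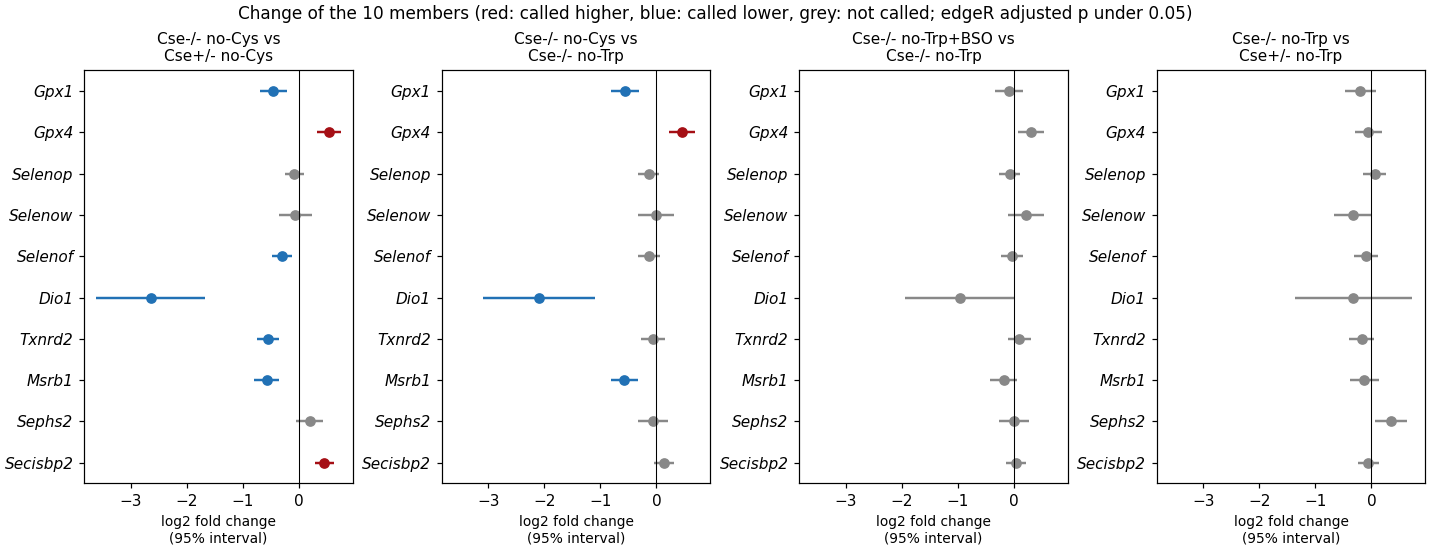
Log2 fold change of the 10 genes (x axis) in 4 comparisons, with 95% intervals from the edgeR fit; red and blue mark genes called higher and lower, grey those not called. In the no-Cys comparison of genotypes 7 of 10 genes are called, in that of diets within Cse-/- livers 4, and in the other 2 panels none.

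Markers of cell types moved in the same comparison. All 5 erythroid markers were lower in Cse-/- no-Cys livers, with a summed level of 69.1 to 114 CPM against 201 to 406 CPM in Cse+/- no-Cys livers. Of 5 hepatocyte markers 3 were lower and 1 was higher, with a sum of 39175 to 66649 CPM against 82699 to 107458 CPM. Of 5 cholangiocyte markers 2 were lower (16.4 to 28.6 against 45.9 to 57.9 CPM), and of 5 stellate cell markers 2 were lower (201 to 239 against 238 to 279 CPM). Of 5 endothelial markers 1 was higher (176 to 211 against 183 to 226 CPM), and of 5 Kupffer cell markers none was called (157 to 209 against 194 to 251 CPM). The lymphocyte markers summed to at most 2.96 CPM in either group. The part of these differences in the values of the 10 genes was not tested.

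Related genes of selenium biology were examined in the same comparison. Of 15 other selenoprotein genes 11 were tested, since Gpx2, Dio2, Dio3 and Selenov had too few counts. Of these 11, 2 were higher, 2 were lower and 7 were not called, with a median log2 fold change of −0.099. Txnrd1, the cytosolic thioredoxin reductase, was at 123, 118, 115 and 116 CPM in Cse+/- and 153, 139, 169 and 187 CPM in Cse-/- no-Cys livers, without overlap and opposite in direction to Txnrd2 (log2 fold change 0.46, SE 0.0995, edgeR adjusted p = 0.00261). Selenos, which takes part in the export of misfolded proteins from the endoplasmic reticulum, was higher as well, at 83.5, 114, 108 and 90.7 against 82.9, 62.3, 72.6 and 68.9 CPM (log2 fold change 0.47, SE 0.13, edgeR adjusted p = 0.0135), with adjusted p of 0.0522 without av02 (0.41) and 0.0544 without av06 (0.39). Txnrd3, a reductase known from testis, and Selenoh, a nucleolar selenoprotein, were lower, with log2 fold changes of −0.70 and −0.49 (edgeR adjusted p = 0.0157 and 0.0117). Without av05 these were −0.61 and −0.39, with adjusted p of 0.0579 and 0.0544.

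Of 10 other genes of selenocysteine synthesis and insertion, 3 were higher, none was lower and 7 were not called. Eefsec, the elongation factor for the selenocysteine tRNA, was at 32.4, 28.2, 29.1 and 26.5 CPM in Cse+/- and 40.9, 39.4, 38.7 and 45.5 CPM in Cse-/- no-Cys livers, without overlap (log2 fold change 0.50, SE 0.0948, edgeR adjusted p = 8.30e-04). Of its 61-base words, 8.47% are shared with Gm44264, on the opposite strand. Ncl and Rpl30, proteins that bind SECIS elements among other RNAs, rose by 0.50 and 0.32 on the log2 scale (edgeR adjusted p = 0.00233 and 0.0416). The Rpl30 difference did not pass without av01, av02, av06 or av07, with log2 fold changes of 0.28, 0.29, 0.24 and 0.29. Of 6 genes of selenium uptake, release and disposal 5 were tested, Lrp8 having too few counts. Inmt, which methylates selenium compounds among others, fell by 1.04 on the log2 scale (edgeR adjusted p = 0.0142), and by 0.75 with an adjusted p of 0.0678 without av04. Selenbp2, which despite its name is no selenoprotein, was at 55.0, 493, 332 and 115 CPM in Cse+/- and 7.14, 2.79, 2.23 and 9.37 CPM in Cse-/- livers (log2 fold change −5.53, SE 0.896, edgeR adjusted p = 2.33e-04). Scly, which releases selenium from selenocysteine, was higher by 0.24 (edgeR adjusted p = 0.0378), a call kept only without av05 or av07 and lost without each of av01, av02, av03, av04, av06 and av08, with log2 fold changes of 0.20 to 0.25. Of 5 relatives that carry cysteine in place of selenocysteine 1, Msrb3, was called (log2 fold change −0.65, edgeR adjusted p = 7.88e-04).

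**Figure D3:**
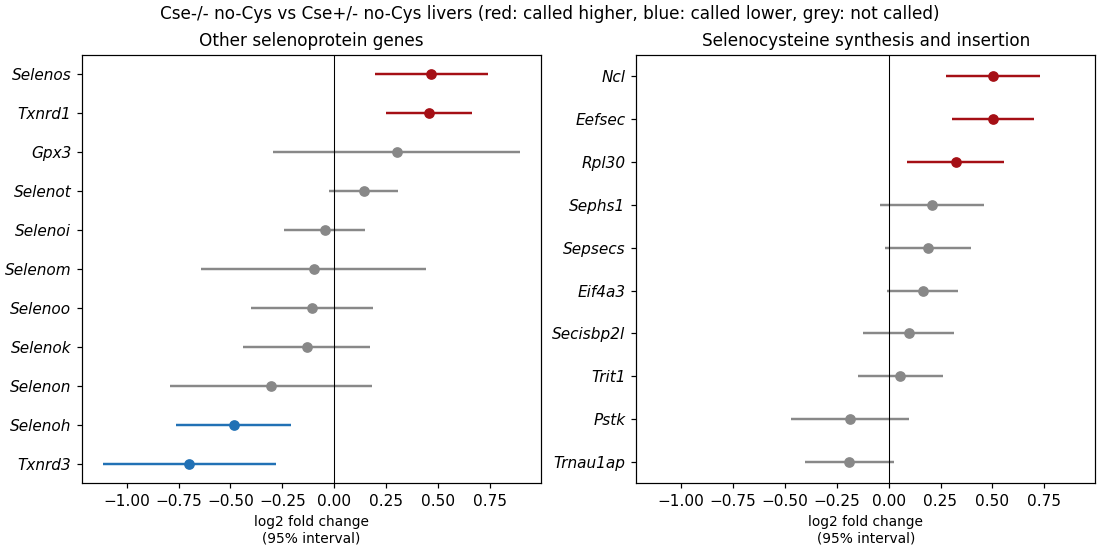
Log2 fold change between Cse-/- and Cse+/- no-Cys livers (x axis) of 11 other selenoprotein genes, left, and 10 genes of selenocysteine synthesis and insertion, right, with 95% intervals from the edgeR fit; red and blue mark genes called higher and lower. Selenos, Txnrd1, Ncl, Eefsec and Rpl30 are called higher, and Selenoh and Txnrd3 lower.

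Dio1 acts on thyroid hormone, and 3 of 5 other genes of thyroid hormone action reported here were called in this comparison. Thrb, the main thyroid hormone receptor of liver, was at 31.7, 40.7, 31.3 and 29.1 CPM in Cse+/- and 22.7, 22.4, 17.3 and 24.2 CPM in Cse-/- no-Cys livers (log2 fold change −0.62, SE 0.136, edgeR adjusted p = 0.00277). Ttr, a carrier of thyroxine in plasma and also 1 of the hepatocyte markers above, was lower, with a log2 fold change of −1.04 (edgeR adjusted p = 8.81e-05). Serpina7, the thyroxine-binding globulin, was at 11.8, 28.9, 29.6 and 38.4 and 13.5, 50.2, 40.3 and 239.8 CPM, and its call (edgeR adjusted p = 0.0472) rested on mouse av08, without which its log2 fold change was 0.34 in place of 1.65. It was also lost without av01, av02, av03 or av04, with log2 fold changes of 1.41, 1.68, 1.69 and 1.86.

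**Figure D4:**
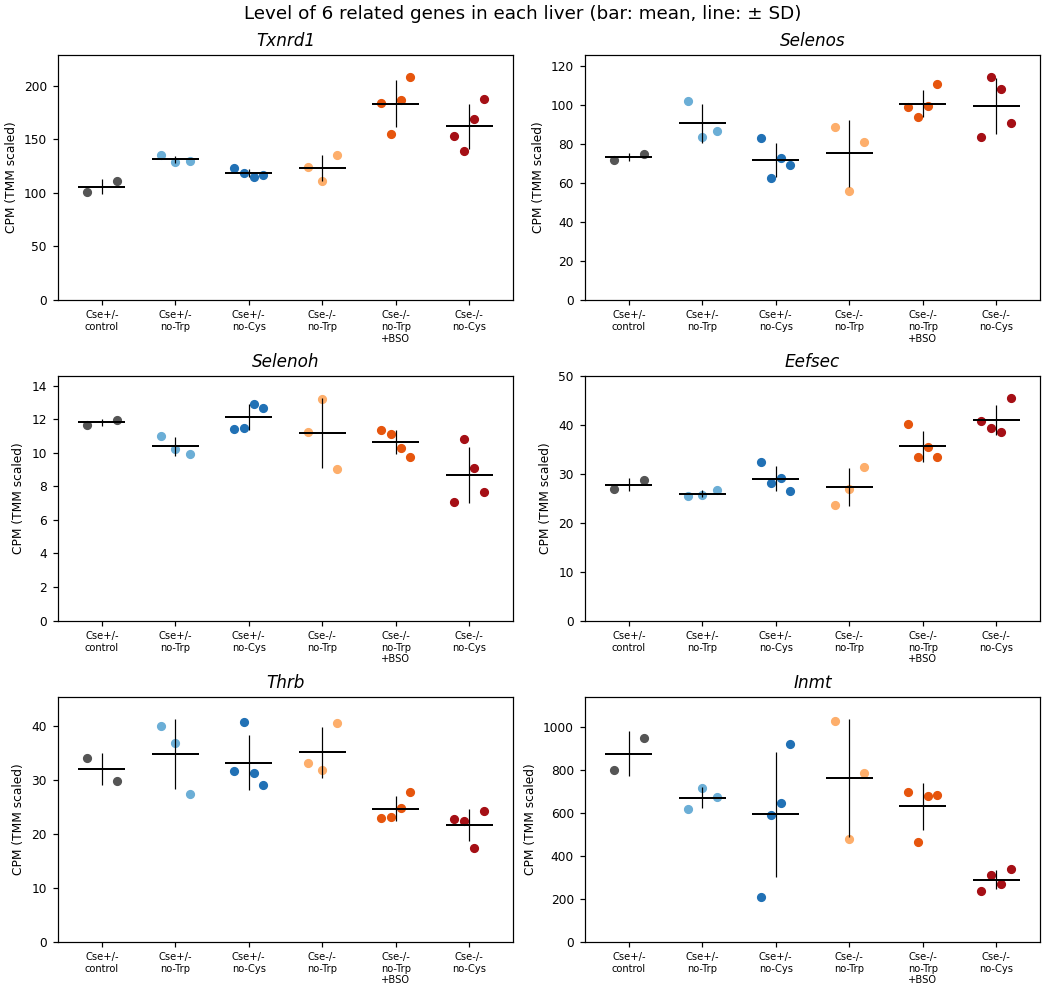
Level of 6 related genes in each liver, as CPM after TMM scaling on linear axes from 0; points are mice, horizontal bars group means and vertical lines 1 SD on either side. Txnrd1 is higher in the Cse-/- livers on no-Trp + BSO (155 to 208 CPM) and no-Cys (139 to 187 CPM) than in all other livers, of which the highest is at 135 CPM.

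Within Cse-/- mice, the no-Cys diet was compared with the no-Trp diet, which lacks another amino acid. Gpx1, Dio1 and Msrb1 were lower and Gpx4 was higher on the no-Cys diet, so that 4 of 10 genes were called, against 10.4% of all genes tested (5.35% lower and 5.05% higher). Gpx1 was at 2369.6, 1513 and 1857 CPM on the no-Trp diet, and all 3 livers were above the 4 no-Cys livers given above (log2 fold change −0.56, SE 0.122, edgeR adjusted p = 0.0069). Without av14, the highest of the 3, its log2 fold change was −0.38 (edgeR adjusted p = 0.0632). Dio1 was at 126, 128 and 82.0 CPM on the no-Trp diet, again above all no-Cys livers (log2 fold change −2.10, SE 0.478, edgeR adjusted p = 0.00972), and so was Msrb1 at 555, 461 and 459 CPM (log2 fold change −0.58, SE 0.115, edgeR adjusted p = 0.00445). Without av05 the log2 fold change of Dio1 was −2.75 and without av06 it was −1.83, with the call kept in both cases. Gpx4 was at 221, 202 and 180.5 CPM on the no-Trp diet, below all no-Cys livers (log2 fold change 0.46, SE 0.111, edgeR adjusted p = 0.0138), but it did not pass without av06 (0.39, adjusted p 0.0563) or av16 (0.38, adjusted p 0.0765). With only these 2 groups in the fit, Gpx1 and Gpx4 had adjusted p of 0.0798 and 0.0663, and Dio1 and Msrb1 stayed called.

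Txnrd2 and Selenof, lower in Cse-/- than in Cse+/- no-Cys livers, were not called between the diets within Cse-/- mice. Txnrd2 was at 27.8, 28.2 and 27.4 CPM on the no-Trp diet, with a 95% interval of the log2 fold change of −0.27 to 0.15. Selenof was at 184, 149 and 148 CPM (interval −0.34 to 0.061). Secisbp2, at 20.6, 20.6 and 21.7 CPM on the no-Trp diet, was below all no-Cys livers without passing the test (log2 fold change 0.14, edgeR adjusted p = 0.314). Selenop (7741, 8650.4 and 8212 CPM), Selenow (98.0, 59.3 and 74.5 CPM) and Sephs2 (805, 901 and 913 CPM) overlapped with the no-Cys livers, with log2 fold changes of −0.13, −0.0064 and −0.060. The comparisons share the Cse-/- no-Cys livers and are not independent of each other. Among other selenoprotein genes Txnrd1 was the only one of 11 called (log2 fold change 0.39, SE 0.108, edgeR adjusted p = 0.0264), and Eefsec rose by 0.59 on the log2 scale (edgeR adjusted p = 0.00148). The Txnrd1 call was lost without av07 (0.38), av08 (0.32), av14 (0.40) or av15 (0.31). It was also lost with only the groups compared in the fit (adjusted p 0.107) and with no filter on low counts (0.0535).

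Of the other related genes, Ncl was the only one besides Eefsec called among the 10 genes of selenocysteine synthesis and insertion, with overlapping ranges (log2 fold change 0.38, edgeR adjusted p = 0.0451). Leaving out any of av05, av06, av07, av14, av15 or av16 ended this call (0.29 to 0.40), and it stayed without av08. The Ncl call was also lost with no filter on low counts, with only the groups compared and after thinning (adjusted p 0.0809, 0.16 and 0.0824). Of 5 genes of selenium uptake, release and disposal, Selenbp2 and Inmt were lower on the no-Cys diet. Selenbp2 was at 165, 49.9 and 89.9 CPM on the no-Trp diet (log2 fold change −4.24, SE 0.878, edgeR adjusted p = 0.00544) and Inmt at 1026, 479 and 783 CPM (log2 fold change −1.41, SE 0.312, edgeR adjusted p = 0.0083), and Inmt did not pass without av14 (−1.13). Of the 5 relatives with cysteine, Gpx7, a peroxidase of the endoplasmic reticulum, was lower (log2 fold change −0.94, edgeR adjusted p = 0.0156), but did not pass without av07 (−0.82) or av15 (−0.64). Its call was also lost with only the groups compared in the fit (adjusted p 0.0778) and after thinning to the shallowest library (0.151). Of the thyroid hormone genes reported here, Thrb (33.1, 31.8 and 40.6 CPM on the no-Trp diet) and Ttr were lower, with log2 fold changes of −0.70 and −0.64 (edgeR adjusted p = 0.0052 and 0.0174). The call of Thrb stayed with each library left out, and that of Ttr was lost without av05 (−0.56), av07 (−0.59) or av14 (−0.50). With only the groups compared in the fit Thrb stayed called and Ttr did not (adjusted p 0.0302 and 0.08).

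Erythroid markers, at 119 to 184 CPM in the no-Trp livers, were lower on the no-Cys diet for 3 of 5 genes, as were 2 of 5 hepatocyte markers (62195 to 69047 CPM on the no-Trp diet), 1 of 5 cholangiocyte markers (27.6 to 46.2 CPM) and 1 of 5 stellate cell markers (189 to 226 CPM). No Kupffer cell, endothelial or lymphocyte marker was called, and the part of the markers in these differences was not tested.

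BSO, which lowers glutathione synthesis by another route, was given to Cse-/- mice with the no-Trp diet and compared with the no-Trp diet alone. None of the 10 genes was called by edgeR, against 0.793% of all genes tested, nor by DESeq2, and 1 (Gpx4) had an unadjusted p under 0.05. Gpx4 was at 283, 237, 259 and 216 CPM with BSO, with 1 of the 4 livers below the highest no-Trp liver (log2 fold change 0.31, edgeR adjusted p = 0.205). Dio1 was at 55.6, 48.4, 55.6 and 69.2 CPM with BSO, below all 3 no-Trp livers (log2 fold change −0.97, 95% interval −1.94 to 0.0031, edgeR adjusted p = 0.384). With only these 2 groups in the fit its adjusted p was 0.028. Msrb1, at 439, 449, 432 and 409 CPM, was also below all no-Trp livers, with an interval of −0.43 to 0.056. Gpx1, at 1859, 1904, 1703 and 1726 CPM, lay within the range of the no-Trp livers (interval −0.34 to 0.17). The intervals of the log2 fold changes of Selenop (−0.26 to 0.11), Selenof (−0.24 to 0.16), Txnrd2 (−0.11 to 0.31), Secisbp2 (−0.14 to 0.21), Sephs2 (−0.26 to 0.26) and Selenow (−0.11 to 0.54) held 0. Outside the 10 genes, Txnrd1 was at 184, 155, 186 and 208 CPM with BSO and 124, 111 and 135 CPM without, and was the only 1 of 11 other selenoprotein genes called (log2 fold change 0.57, SE 0.108, edgeR adjusted p = 0.0137), a call lost without av09 (0.56) or av15 (0.49). The Txnrd1 call was also lost with only the 2 groups in the fit (adjusted p 0.07).

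Livers with BSO and no tryptophan were also set against Cse-/- no-Cys livers, where 2.75% of all genes tested were called. Gpx1 was higher with BSO, and all 4 livers were above all 4 no-Cys livers (log2 fold change 0.47, SE 0.113, edgeR adjusted p = 0.032). Leaving out any of av05, av06, av07, av09, av10, av11 or av12 ended this call, with log2 fold changes of 0.44 to 0.50 and adjusted p of 0.0635 to 0.117, whereas it stayed without av08. Msrb1 did not overlap either (log2 fold change 0.39, edgeR adjusted p = 0.0552), and it passed without av08 (0.44), with DESeq2 (adjusted p = 0.0151), with only the groups compared (0.0284) and with no filter on low counts (0.0493). Dio1 differed by 1.13 on the log2 scale (interval 0.19 to 2.06, edgeR adjusted p = 0.17), with mouse av05 of the no-Cys group inside the range of the BSO livers. Without av05 the difference was 1.78 (adjusted p 0.0692) and without av06 it was 0.85 (adjusted p 0.359). With no filter on low counts Dio1 passed the test (adjusted p 0.0344). Gpx4 overlapped (interval −0.36 to 0.061). Of the related genes, Inmt and Ttr were higher with BSO, with log2 fold changes of 1.13 and 0.82 (edgeR adjusted p = 0.0425 and 0.00965). With a library left out, the call of Inmt stayed only without av08 or av10 (1.05 to 1.16 without the others), and that of Ttr was lost without av06 (0.80). After thinning to the shallowest library Inmt did not pass either (adjusted p 0.051). In this comparison 2 of 5 hepatocyte markers were higher with BSO, with a sum of 58912 to 74368 CPM against 39175 to 66649 CPM, as were 2 of 5 cholangiocyte markers (36.3 to 48.6 against 16.4 to 28.6 CPM). None of the erythroid markers was called (68.3 to 166 against 69.1 to 114 CPM), nor any of the endothelial, stellate, Kupffer cell and lymphocyte markers. The part of these differences in the values of the 10 genes was not tested.

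Between genotypes on the no-Trp diet none of the 10 genes was called, by edgeR or by DESeq2, against 2.64% of all genes tested, and 1 (Sephs2) had an unadjusted p under 0.05. Sephs2 was at 810.2, 701 and 547 CPM in Cse+/- and 805, 901 and 913 CPM in Cse-/- no-Trp livers, which overlapped (log2 fold change 0.35, edgeR adjusted p = 0.17). Gpx1 was at 2093, 2222 and 2271 CPM and Gpx4 at 203, 204 and 219.8 CPM in Cse+/- no-Trp livers, with intervals of the log2 fold change of −0.47 to 0.075 and −0.30 to 0.19. Dio1, at 177, 141 and 102 CPM in Cse+/- no-Trp livers, had an interval of −1.36 to 0.72, the widest of the 10 genes. Of the related genes, 3 were called. Scly was at 85.9, 75.6 and 67.0 CPM in Cse+/- and 98.1, 101 and 97.3 CPM in Cse-/- no-Trp livers, without overlap (log2 fold change 0.38, edgeR adjusted p = 0.0374). Msrb3 was lower in Cse-/- livers, also without overlap (log2 fold change −0.65, edgeR adjusted p = 0.0166). Both were called in the same direction on the no-Cys diet, and the genotype effects under the 2 diets differed by −0.14 for Scly and 0.00069 for Msrb3 (intervals −0.40 to 0.12 and −0.34 to 0.34). Msrb2, the methionine sulfoxide reductase of mitochondria, was higher in Cse-/- livers with overlapping ranges (log2 fold change 0.66, edgeR adjusted p = 0.042). Leaving out a library ended the call of Scly for av14, av15, av16, av19 or av20 (0.29 to 0.38), of Msrb3 for av16 (−0.57) or av19 (−0.65) and of Msrb2 for av14, av15, av17 or av20 (0.52 to 0.57). With only the groups compared in the fit all 3 calls were lost (adjusted p 0.235 for Scly, 0.121 for Msrb3 and 0.271 for Msrb2). Scly also did not pass with no filter on low counts (adjusted p 0.0944).

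The genotype effects under the 2 diets, no-Cys and no-Trp, were then tested against each other, which called Gpx4 and Secisbp2, with 4.36% of all genes called. The genotype effect on Gpx4 was 0.53 on the no-Cys diet and −0.054 on the no-Trp diet on the log2 scale, with a difference of 0.58 (SE 0.156, edgeR adjusted p = 0.0378). For Secisbp2 the effects were 0.45 and −0.060, with a difference of 0.51 (SE 0.121, edgeR adjusted p = 0.0199). The Secisbp2 call held in all 14 fits that left out 1 of the 14 mice, and was lost with no filter on low counts (adjusted p 0.0856). The Gpx4 call held in 4, and was lost without each of av02, av03, av05, av06, av07, av15, av16, av17, av19 and av20, with differences of 0.51 to 0.62 and adjusted p of up to 0.0974. It was also lost with only the groups compared in the fit (adjusted p 0.0633) and after thinning to the shallowest library (0.0552). For Dio1 the difference was −2.32 (interval −3.73 to −0.91, edgeR adjusted p = 0.0555). It passed without av01 (−2.64), without av05 (−2.95), with DESeq2 (adjusted p = 0.0295) and with no filter on low counts (adjusted p = 0.00139). Of the 14 fits that left out 1 mouse only 2 passed for Dio1, with differences of −2.95 to −2.03 and adjusted p of up to 0.12. For Msrb1, Txnrd2 and Gpx1 the differences were −0.44, −0.39 and −0.26, with edgeR adjusted p of 0.133, 0.127 and 0.438, and that of Msrb1 passed without av01 (−0.55). In the same test 2 of 5 hepatocyte and 1 of 5 erythroid markers were called lower and 1 of 5 endothelial markers higher, with none called among the Kupffer cell, stellate cell, cholangiocyte and lymphocyte markers. Their part in the differences of the 10 genes was not tested.

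In Cse+/- mice, which can make cysteine, the no-Cys diet was compared with the control diet. Only Secisbp2 was called among the 10 genes, against 2.18% of all genes tested. It was at 23.9 and 23.3 CPM on the control diet, above all 4 no-Cys livers (log2 fold change −0.49, SE 0.0967, edgeR adjusted p = 0.0125). With a single control mouse the call was lost, at −0.47 without av21 and −0.51 without av22 (adjusted p 0.0758 and 0.164), when the remaining mouse is assumed to vary like the other groups. It was also lost with only these 2 groups in the fit (adjusted p 0.0807). Of the cell type markers, 1 of 5 cholangiocyte markers was lower on the no-Cys diet and none of the other types was called, and the part of this in the value of Secisbp2 was not tested. This comparison shares its no-Cys livers with that of genotypes on the no-Cys diet. The control livers had 1881 and 1902 CPM of Gpx1, 181 and 208 CPM of Gpx4, 166 and 101 CPM of Dio1, 540.0 and 532 CPM of Msrb1 and 32.8 and 37.3 CPM of Txnrd2. They had 7182 and 7418 CPM of Selenop, 87.2 and 89.1 CPM of Selenow, 164 and 167 CPM of Selenof and 872 and 831 CPM of Sephs2. Gpx1, Gpx4, Dio1, Txnrd2 and Msrb1 overlapped with the no-Cys livers, with log2 fold changes of −0.091, −0.025, 0.29, 0.16 and −0.13. The ranges of the other 5 genes did not overlap, against 25.6% of all genes tested. Besides Secisbp2, all no-Cys livers were higher than both control livers in Selenop (log2 fold change 0.12, interval −0.098 to 0.33) and Selenof (0.12, interval −0.11 to 0.34) and lower in Selenow (−0.13, interval −0.50 to 0.23) and Sephs2 (−0.22, interval −0.51 to 0.079), without passing the test. Between the no-Trp and control diets none of the 10 genes was called, by edgeR or by DESeq2, against 0.0474% of all genes tested, and 1 (Sephs2, log2 fold change −0.31) had an unadjusted p under 0.05. Ranges did not overlap for 5 of the 10 genes, against 27.4% of all genes tested, with Gpx1, Selenop and Selenow higher and Sephs2 and Secisbp2 lower on the no-Trp diet in these livers.

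The order of the group means differed between the genes. For Gpx1 and Msrb1 only the lowest group, Cse-/- no-Cys, was separated from its neighbour in that order, with means of 1294 ± 111 CPM (SD, n = 4) and 329.9 ± 22.9 CPM (SD, n = 4). The means of Dio1 were highest in Cse+/- no-Cys livers, at 163 ± 94.7 CPM (SD, n = 4), and lowest in Cse-/- no-Cys livers, at 26.1 ± 19.6 CPM (SD, n = 4). The Cse-/- no-Trp livers averaged 112 ± 26.1 CPM (SD, n = 3) and the Cse-/- livers with BSO 57.2 ± 8.66 CPM (SD, n = 4), the only neighbours in the order of Dio1 that did not overlap. For Gpx4, with a lowest mean of 191 ± 17.7 CPM (SD, n = 4) and a highest of 276 ± 26.6 CPM (SD, n = 4), and for Selenop, Selenof, Txnrd2 and Sephs2 all neighbours overlapped. Selenow had 1 gap, between the Cse+/- control and Cse+/- no-Cys livers. Secisbp2 had the lowest mean in Cse+/- no-Cys livers, 16.9 ± 0.851 CPM (SD, n = 4), and the highest in Cse+/- control livers, 23.6 ± 0.418 CPM (SD, n = 2).

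The genes whose level followed that of a member most closely over the 20 livers were named for the 3 members with the smallest p in the no-Cys comparison of genotypes, among 7821 genes with a mean of at least 10 CPM. For Dio1 they were Ces3a (Pearson r of log2 CPM 0.901), Sult2a8 (0.900) and Srd5a1 (0.889), for Txnrd2 Tcim (0.872), Slc17a8 (0.865) and Lrit1 (0.864), and for Secisbp2 Sap30bp (0.833), Sugp1 (0.833) and Got1 (0.823). These values describe 20 livers that share 6 groups and a scaling, and carry no test.

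The antioxidant response element core TGACNNNGC was searched on both strands of windows from 250 bases before to 50 bases after the annotated starts (RefSeq, GRCm38.p6). None of the 15 windows of the 10 genes held it, against 12.4% of 32851 windows of all genes. Of the related genes, Selenok, Lrp8, Msrb2, Thrb and Txnrd1 held 1 match each, and the other windows of Lrp8, Thrb and Txnrd1 held none. The share of windows with a match was not taken over the related genes. Between genotypes on the no-Cys diet Txnrd1 rose, Thrb fell, Selenok and Msrb2 were not called and Lrp8 was not tested. Whether the matches have a part in these levels was not tested. The match of Txnrd1 is on the minus strand at chr10:82859114-82859122 and is shown with its flanks on the plus strand and the match in capitals.
Txnrd1: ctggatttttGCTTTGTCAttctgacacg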

How the data were processed

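Poly(A) mRNA of 20 mouse livers was sequenced from both ends. According to the submitters' processing notes, reads were aligned with HISAT2 2.1.0 to GRCm38 and counted on genes with HTSeq 0.11.0. The authors deposited raw counts per gene, without normalization, in 1 table. The annotation release and the strand setting are not given in the sources used here. Columns were assigned to groups with the study's list of mice, and 1 column was not used, since the study's list gives no group for it. Labels call the samples biological replicates, 1 mouse each. Libraries within a group were further apart than counting noise (chi-square per gene 9.60 to 64.2, 25 pairs).

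Genes were filtered with filterByExpr (minimum count 10, minimum total 15) and scaled with TMM factors. A single quasi-likelihood fit of edgeR 4.0.16 (limma 3.58.1, R 4.3.3) over the 6 groups gave two-sided p-values, adjusted by Benjamini-Hochberg over 14759 genes, with a threshold of 0.05. SE is the absolute log2 fold change over the square root of F. Alternatives were DESeq2 1.42.0 (the study's tool), RLE factors, no filter, only the groups compared, thinning to the shallowest library and leaving out each library. The script was tested on simulated data. Symbols and sequences came from GENCODE M21, and promoters from RefSeq. Sequence shared between genes was counted in words of 61 bases. Figures used Python 3.11.15 and matplotlib 3.10.9.

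The 10 genes, the related lists and the tests were chosen with earlier results of these data known. All 10 are named, and of a related list the called genes, up to 6 per comparison by size of change. The results of 1 gene of the thyroid hormone list and 1 overlap between genes are not reported here. No p-value was adjusted over a list alone. With counting error small at this depth, the precision is set by the spread between mice.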

Additional observations from a re-analysis of the deposited data

Results flagged for a closer look

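Of 84 groups of 4 mice checked, for 28 genes, 7 held a mouse far from the others. The cut-off would flag about 1 in 20 such groups of independent normal values. The same mice recur for every gene here, so that no excess over chance can be read from this count. Among the 10 genes a mouse far from the others was found for Txnrd2, at 45.4 CPM in mouse av04. The other 3 mice of the Cse+/- no-Cys group had 36.7 to 37.5 CPM, and the log2 fold change between genotypes on the no-Cys diet was −0.48 without av04. Ncl was at 213 CPM in av02 of the same group, where the rest had 244 to 246 CPM. In mouse av10 of the no-Trp + BSO group, Inmt was at 466 CPM against 678 to 697 CPM and Selenbp2 at 106 CPM against 13.4 to 22.6 CPM. In mouse av08 of the Cse-/- no-Cys group, Serpina7 was at 239.8 CPM and Cth at 13.3 CPM, beside 13.5 to 50.2 CPM and 6.37 to 7.04 CPM in the rest of the group. Cth also stood apart in av01 of the Cse+/- no-Cys group, at 332 CPM beside 121 to 132 CPM.

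The genotype effect differed between the no-Cys and no-Trp diets, by an edgeR test of the difference itself, for 7 of the genes named. These were 2 of the 10 genes, 2 of 11 other selenoprotein genes tested and 1 of 5 relatives with cysteine. The rest were 1 of 5 genes of selenium uptake, release and disposal and 1 of 6 of thyroid hormone action. None of 10 genes of selenocysteine synthesis and insertion was called. Of all genes tested 4.36% were called. The related genes named were those called in a comparison, this one included, so that the 7 come from a selected list. The differences, on the log2 scale, were 0.58 for Gpx4, 0.51 for Secisbp2, 0.54 for Txnrd1, 0.73 for Selenos, −4.59 for Selenbp2, −1.03 for Msrb2 and −0.81 for Ttr. With each of 14 mice left out in turn, the calls held in 14 cases for Secisbp2 and Msrb2, 6 for Selenbp2, 5 for Selenos, 4 for Gpx4, and 3 for Txnrd1 and Ttr, with ranges of 0.49 to 0.55 for Secisbp2, −1.31 to −0.90 for Msrb2, −5.55 to −4.02 for Selenbp2, 0.57 to 0.88 for Selenos, 0.51 to 0.67 for Gpx4, 0.47 to 0.62 for Txnrd1 and −0.96 to −0.66 for Ttr.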

How the results depend on the processing

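Of 400 log2 fold changes of the 10 genes under other settings, 385 kept direction and side of the threshold, 7 lost the call, 7 gained it and 1 changed sign. The last was Sephs2 between no-Trp + BSO and no-Trp Cse-/- livers, at 0.0055 with no filter on low counts in place of −0.0014. With only the groups compared in the fit, 2 of the 10 genes were called between no-Cys and no-Trp Cse-/- livers (4 in the full fit), 1 with BSO against no-Trp alone (0), 2 with BSO against no-Cys (1), 0 between no-Cys and control Cse+/- livers (1) and 1 for the difference of genotype effects (2). With DESeq2, 2 were called with BSO against no-Cys, and 3 with no filter. Thinning left 1 for the difference of genotype effects. The cause was not tested. Between genotypes on the no-Cys diet, 7 were called under every alternative other than no filter (6) and leaving out av05 or av07 (6 each).

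With each library left out, 0 to 2 were called with BSO against no-Cys, 0 to 1 between no-Cys and control Cse+/- livers and 1 to 4 for the difference of genotype effects. Of 610 such log2 fold changes 558 kept direction and side of the threshold, 24 lost the call, 4 gained it and 24 changed sign, each of a gene not called in the full fit. Those ranged for Selenow from −0.15 to 0.030 between genotypes on the no-Cys diet and −0.17 to 0.20 between no-Cys and no-Trp Cse-/- livers, where Sephs2 ranged from −0.17 to 0.013. With BSO against no-Trp alone they were −0.25 to 0.089 for Gpx1, −0.11 to 0.071 for Selenof, −0.061 to 0.022 for Sephs2 and −0.036 to 0.081 for Secisbp2, and with BSO against no-Cys −0.013 to 0.17 for Sephs2. For Gpx4 they were −0.14 to 0.013 between genotypes on the no-Trp diet and −0.13 to 0.078 between no-Cys and control Cse+/- livers, where Dio1 ranged from −0.023 to 0.69. Between no-Trp and control Cse+/- livers Dio1 ranged from −0.24 to 0.47 and Msrb1 from −0.024 to 0.029. Of 493 values for 37 called results of related genes none changed sign, and 27 under other settings and 100 with a library left out lost the call. No paired analysis was possible because the columns carry mouse numbers and not the replicate numbers of the labels.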
